A study of Homo sapiens with 6 samples.

Results

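SR proteins and hnRNPs are the 2 large families of RNA-binding proteins that set which exons are joined in a messenger RNA. The genes described here are 40 of the 60683 genes in the count table: the SR protein genes SRSF1 to SRSF12, the SR-like genes TRA2A and TRA2B, the hnRNP genes with PTBP1 to PTBP3 and SYNCRIP, and the coactivator genes RBM39 and SON. The rule that picks them is family membership and uses no measured value, though it was set with earlier results of these data known. All 40 matched a row by symbol, and all 40 passed the filter on low counts.

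The RNA came from 143B cells, a human osteosarcoma line derived from the HOS line. The libraries fall into 2 groups of 3, PBS alone and TPBC-PEG, each given for 24 h, with no untreated group and no other genotype. TPBC-PEG is the compound that the series title places in photodynamic therapy, in which a compound forms reactive oxygen species under light. The titles give its dose as 3 µM and the treatment protocol as 300 µM, so the dose is not settled, and the labels do not say whether the cells were lit. The extraction text speaks of animal tissue, while every other label gives cultured 143B cells. The labels name no separate cultures, so the p-values measure the spread between these libraries only, which may be technical.

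SR proteins carry an RNA recognition motif and a tail rich in arginine and serine. They bind exonic enhancers and draw the spliceosome to nearby splice sites, and kinases of the CLK and SRPK families phosphorylate the tail. hnRNPs coat nascent transcripts and often bind exonic or intronic silencers, so the balance between the families can decide whether an exon is kept. Many of these genes control their own level through a poison exon, an exon with a premature stop codon whose inclusion sends the transcript to nonsense-mediated decay.

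These poison exons bear on what a count per gene can show, since reads of the coding and of the decaying transcript are added up. In GENCODE 29, 30 of the 40 genes have at least 1 transcript marked for nonsense-mediated decay. In 11 genes an internal exon of such a transcript holds the stop codon and touches no exon of a protein-coding transcript. Of these 11 genes, 8 were called lower after TPBC-PEG, 1 higher and 2 neither, beside 28, 2 and 10 of all 40. The stretch from the first base of that exon to its stop codon is printed for SRSF3, SRSF4, SRSF6 and SRSF7, SR protein genes that were lower after TPBC-PEG, with the stop codon in capitals (GRCh38, 5′ to 3′ on the gene's strand). Where a gene has several such exons, 1 is shown.
SRSF3, chr6:36599821-36599854, plus strand: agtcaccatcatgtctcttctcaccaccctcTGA
SRSF4, chr1:29160018-29160058, minus strand: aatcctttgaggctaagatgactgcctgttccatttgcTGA
SRSF6, chr20:43459153-43459304, plus strand: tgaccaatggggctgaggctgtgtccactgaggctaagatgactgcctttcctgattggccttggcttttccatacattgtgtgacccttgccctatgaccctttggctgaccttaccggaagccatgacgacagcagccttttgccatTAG
SRSF7, chr2:38749319-38749346, minus strand: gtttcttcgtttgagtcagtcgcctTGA
The exons run on past these stop codons, to 456 bases in SRSF3, 195 in SRSF4, 268 in SRSF6 and 449 in SRSF7. How often these exons were included was not analysed here.

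Most of these genes were lower after TPBC-PEG, by small amounts. Of the 40 genes, 28 fell, 2 rose and 10 did not pass the test, at a Benjamini-Hochberg adjusted p under 0.05 in edgeR's quasi-likelihood test. Over all 15846 genes tested, 16.9% were lower and 16.2% higher. Among those called, SRSF6 changed the most and fell by 27.7%, while RBM39 rose by 13.2% and PTBP2 by 16.1%. The median log2 fold change was -0.15 over the 40 genes and 0.01 over all genes tested.

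The size of the falls was narrow. Of the 28 genes that fell, 3 did so by over 20%, 17 by 10% to 20% and 8 by less than 10%. In edgeR's test against a threshold of 1.5-fold, 0 of the 40 genes passed in either direction. In 28 genes the 3 TPBC-PEG values lay below all 3 PBS values, against 21.4% of all genes tested, and in 3 genes they lay above all 3, against 22.1%. In the other 9 genes the groups overlapped.

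The level of a gene matters for this count, since abundant genes were called lower more often. Of the 2261 genes whose mean over the 6 libraries reached 100 CPM (counts scaled to the library's size, here with TMM factors), 42.1% were lower and 17.7% higher, with a median log2 fold change of -0.07. Of the 33 splicing regulator genes at or above 100 CPM in PBS cells, 27 fell and 1 rose. Of the 7 below that level 1 fell and 1 rose. After removal of the dependence of fold change on expression, 17 of the 40 genes were lower, 3 were higher and the median was -0.06. With library size alone in place of TMM, 20 were lower and 2 higher, while over all genes 3213 were higher and 1971 lower, against 2574 and 2682 with TMM.

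**Figure D1:**
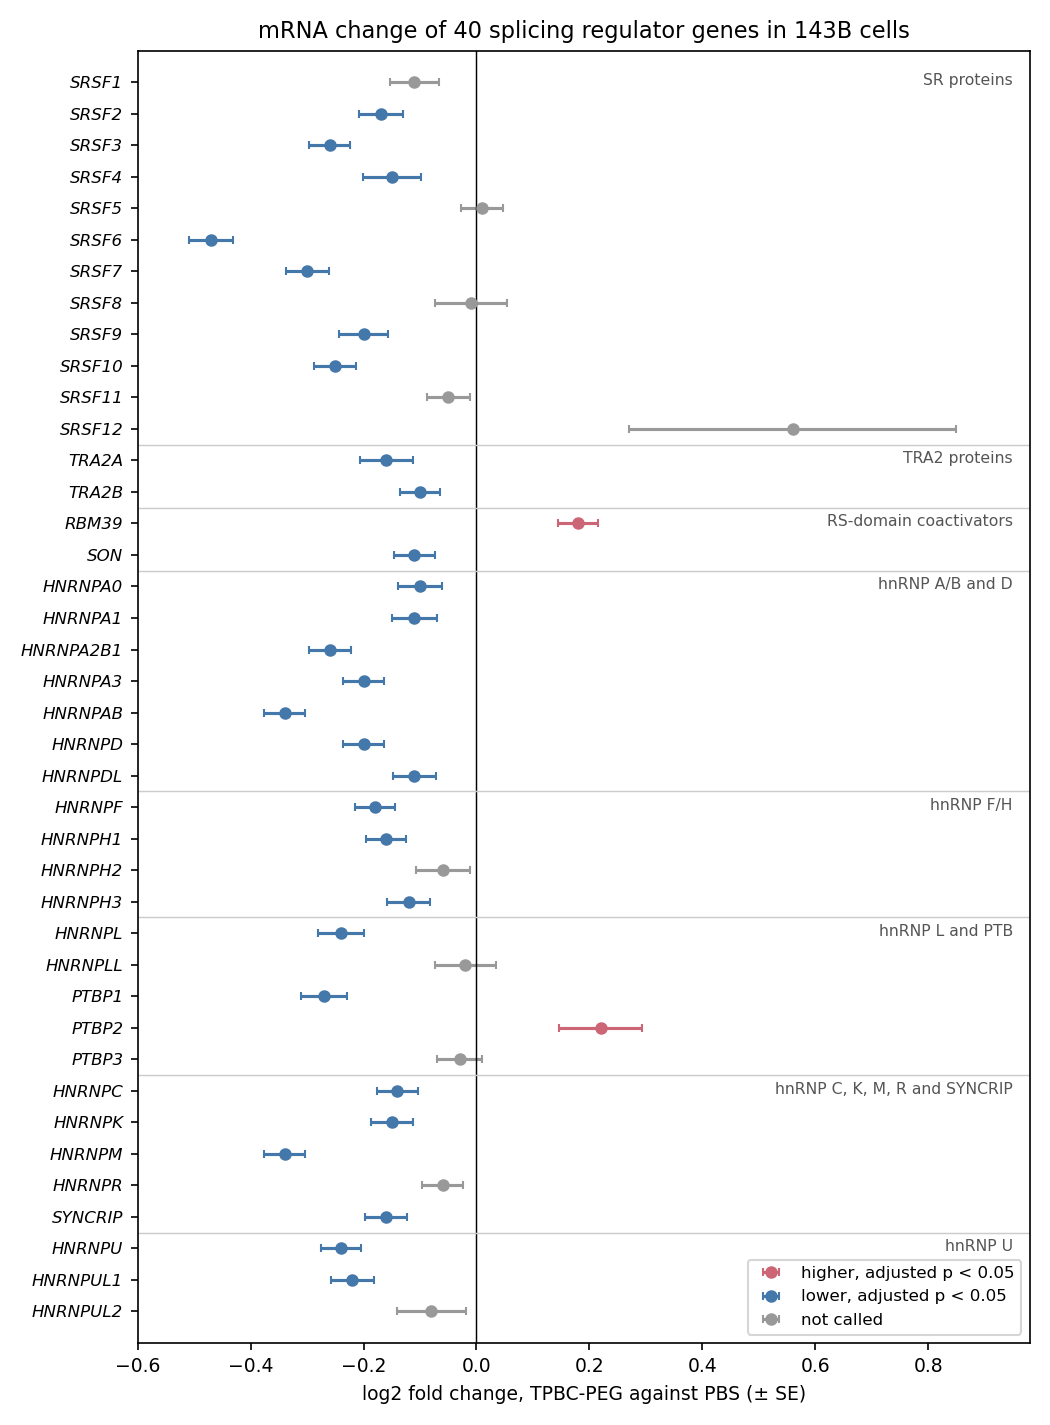
log2 fold change of each of the 40 genes, TPBC-PEG against PBS, with its standard error, ordered by family; colour marks the call at an adjusted p under 0.05. The 28 genes called lower lie between -0.47 and -0.10, and RBM39 and PTBP2 lie to the right of 0.

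**Figure D2:**
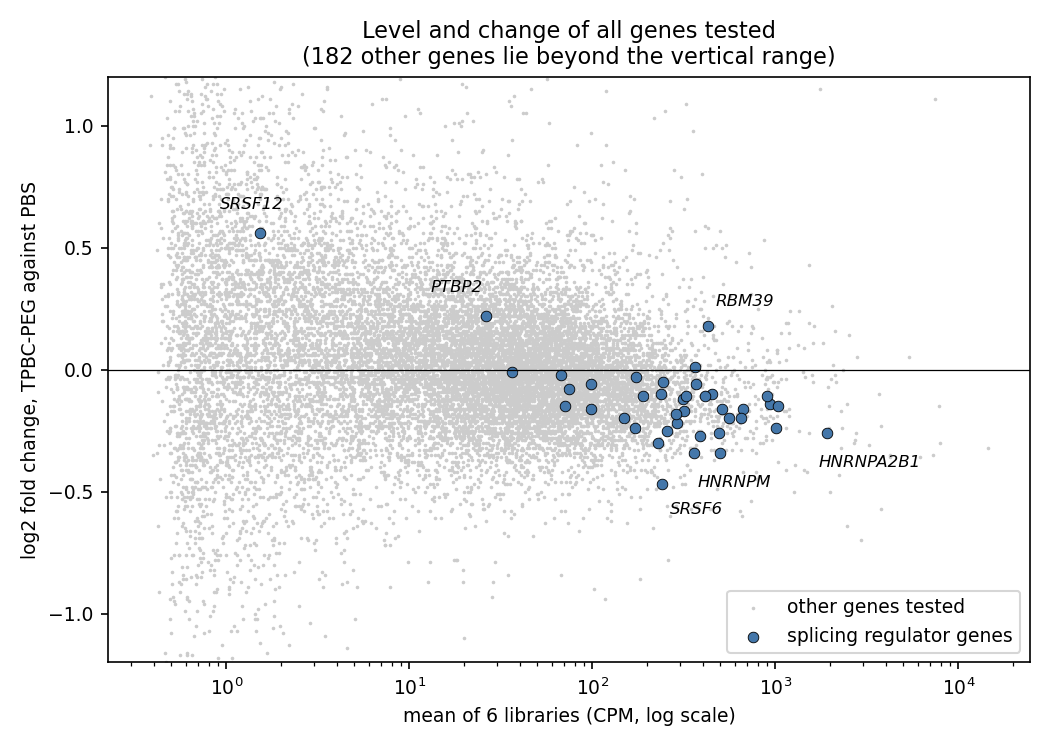
Mean level over the 6 libraries in CPM (log axis) against the log2 fold change for all 15846 genes tested (grey) and the 40 splicing regulator genes (blue). The blue points lie mostly at 100 CPM or more and below 0, where the grey points also lie lower than at low levels.

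Library totals ran from 15726323 to 20486584 counts. The 40 genes together took 1.63% to 1.67% of the counts of a PBS library and 1.5% to 1.52% of a TPBC-PEG library. Mitochondrially encoded mRNAs took 5.42% to 6.32% with PBS and 4.75% to 4.92% with TPBC-PEG, and their part in the changes of the 40 genes was not tested. Of 12 osteoblast and mesenchymal markers, VIM (2577 ± 22.6 CPM in PBS cells, mean ± SD, n = 3) and SPARC (413.5 ± 12.6) were the most abundant, and COL1A2 was near 0. Of the 8 of them tested 4 fell, VIM at -0.14, SPARC at -0.18, COL1A1 at -0.48 and CDH11 at -0.48, and RUNX2 rose by 0.55 on the log2 scale. Their summed level was 3151 to 3201 CPM in PBS libraries and 2834 to 2950 in TPBC-PEG libraries. The osteoblast markers SP7, BGLAP and IBSP of the same list were at or near 0, with IBSP at 0 in all 6 libraries. Of 9 epithelial markers 5 were tested: KRT18 fell from 762.4 ± 18.2 to 568.1 ± 31.4 CPM, KRT8 fell too, at -0.21, CLDN3 rose from 0.774 to 1.64 CPM, and EPCAM and CLDN4 were not called. The epithelial CDH1, KRT5, KRT14 and KRT19 were at or near 0, and the summed level of the list was 903.8 to 944.2 CPM against 681.9 to 744.6. Among 6 fibroblast markers PDGFRA rose from 60.2 to 86.6 CPM, while DCN and DPT were at 0. The part of these shifts in the changes of the 40 genes was not tested. The summed level of 8 blood cell markers was at most 1.16 CPM in any library. In bulk RNA, fewer cells with a transcript and less transcript per cell cannot be told apart.

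Among the 12 SR protein genes 7 fell, none rose and 5 were not called, with a median log2 fold change of -0.16. SRSF6 (chromosome 20, 43457928 to 43464247, plus strand) encodes an SR protein with a pair of RNA recognition motifs. It stood at 275.1, 269.8 and 292.5 CPM in PBS cells and at 208.8, 200.9 and 195.0 with TPBC-PEG. All 3 treated libraries lay well below the lowest PBS library. The log2 fold change was -0.47 ± 0.039 (SE; edgeR adjusted p = 7.30e-14).

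SRSF3 encodes the smallest SR protein and SRSF7 the one with a zinc knuckle, and both also link mRNA processing to export. SRSF7 had 250.5, 250.3 and 257.3 CPM in PBS cells and 212.0, 200.3 and 205.2 with TPBC-PEG. SRSF3 had 534.1, 543.9 and 529.4 CPM in PBS cells and 456.2, 441.9 and 441.4 with TPBC-PEG. The groups did not overlap in either gene, and the spread within a group was small beside the gap. The log2 fold change was -0.30 ± 0.038 for SRSF7 (edgeR adjusted p = 1.42e-08) and -0.26 ± 0.036 for SRSF3 (edgeR adjusted p = 4.80e-08).

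SRSF10, whose protein is known as a repressor of splicing when dephosphorylated, for example after heat shock, had 280.1, 278.5 and 278.0 CPM in PBS cells and 241.6, 233.1 and 230.6 with TPBC-PEG. The PBS libraries were nearly alike, and the fall was -0.25 ± 0.037 on the log2 scale (edgeR adjusted p = 5.27e-07). SRSF9 had 167.9, 149.6 and 161.9 CPM in PBS cells and 142.4, 135.0 and 139.8 after TPBC-PEG, and it fell by 13%. SRSF2, whose protein stays in the nucleus, had 355.2, 319.2 and 333.5 CPM in PBS cells and 302.5, 290.4 and 305.2 after TPBC-PEG, and it fell by 10.9%. The groups did not overlap in either gene. Their counts are less certain: 46.2% of the exon length of SRSF9 overlaps GATC and 36.7% of that of SRSF2 overlaps MFSD11 or a microRNA gene, mostly on the opposite strand. GATC and MFSD11 themselves were not called, at -0.01 ± 0.062 and -0.02 ± 0.11. SRSF4 had 72.2, 76.8 and 74.3 CPM in PBS cells and 65.9, 69.1 and 65.8 after TPBC-PEG. The groups were apart by a few CPM, at -0.15 ± 0.051 (edgeR adjusted p = 0.0165). The SRSF4 call was lost without PBS replicate 2 (edgeR adjusted p = 0.0676), without TPBC-PEG replicate 1 (0.0726) or 3 (0.0517), and with library size alone (0.101).

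The SR protein genes that were not called were SRSF1, SRSF5, SRSF8, SRSF11 and SRSF12. SRSF1, the founding member of the family, had 209.6, 183.2 and 196.2 CPM in PBS cells and 186.5, 187.9 and 171.5 with TPBC-PEG. The groups overlapped, at -0.11 ± 0.044 (edgeR adjusted p = 0.054), and the gene passed as lower without PBS replicate 2 (edgeR adjusted p = 0.00418) and with the GC trend removed (0.00474). Of the exon length of SRSF1, 60.7% overlaps other annotated genes, chiefly AC015813.2, which is listed at 0 in every library. SRSF5 had 369.0, 363.1 and 357.7 CPM in PBS cells and 368.5, 375.0 and 352.6 with TPBC-PEG. The groups overlapped, and the fitted log2 change was 0.01 ± 0.037. SRSF8, a relative of SRSF2 that arose from its retrotransposed copy, had 36.5, 35.5 and 37 CPM in PBS cells and 35.4, 36.4 and 36.7 after TPBC-PEG, with the groups overlapping. SRSF11 stood at 248.4 ± 2.21 and 239.9 ± 6.9 CPM. SRSF12 was the least abundant of the 40 genes, at 0.887, 1.44 and 1.39 CPM in PBS cells and 1.85, 1.83 and 1.76 with TPBC-PEG. Its 3 treated values were all higher, but with so few counts the log2 difference of 0.56 ± 0.29 did not pass (edgeR adjusted p = 0.142).

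TRA2A and TRA2B encode SR-like proteins that bind GA-rich exonic enhancers, and both fell. TRA2A stood at 103.2, 102.7 and 105.1 CPM in PBS cells and at 99.4, 89.1 and 90.2 with TPBC-PEG, a change of -0.16 ± 0.047 (edgeR adjusted p = 0.00768). TRA2B stood at 460.8, 474.8 and 471.5 CPM in PBS cells and at 439.4, 438.2 and 432.1 with TPBC-PEG, a change of -0.10 ± 0.036 (edgeR adjusted p = 0.0201). The groups did not overlap in either gene, though the gap was narrow. The TRA2B call was lost without TPBC-PEG replicate 1, 2 or 3 (edgeR adjusted p = 0.0597, 0.0604 and 0.0542), with library size alone (0.189) and after the expression trend was removed (0.826). The TRA2A call was lost without TPBC-PEG replicate 2 (edgeR adjusted p = 0.0803) and with library size alone (0.062).

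RBM39 and SON, both with tails or stretches rich in arginine and serine, went apart. RBM39 (chromosome 20, 35701347 to 35742312, minus strand) encodes a relative of the splicing factor U2AF2 and is the target of sulfonamide degraders such as indisulam. It had 405.7, 406.8 and 385.7 CPM in PBS cells and 461.2, 448.6 and 447.0 with TPBC-PEG, so that every treated library lay above every PBS library. The log2 fold change was 0.18 ± 0.036 (edgeR adjusted p = 9.24e-05). The annotation lists 45 transcripts for RBM39, of which 15 are marked for nonsense-mediated decay and 16 as retained introns, so its count adds up many forms. SON, a scaffold of nuclear speckles, had 334.7, 336.0 and 336.9 CPM in PBS cells and 305.2, 311.1 and 316.2 with TPBC-PEG. Its fall was -0.11 ± 0.036 (edgeR adjusted p = 0.0131), a call lost without TPBC-PEG replicate 1 (edgeR adjusted p = 0.091), with library size alone (0.138) and after the expression trend was removed (0.595).

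**Figure D3:**
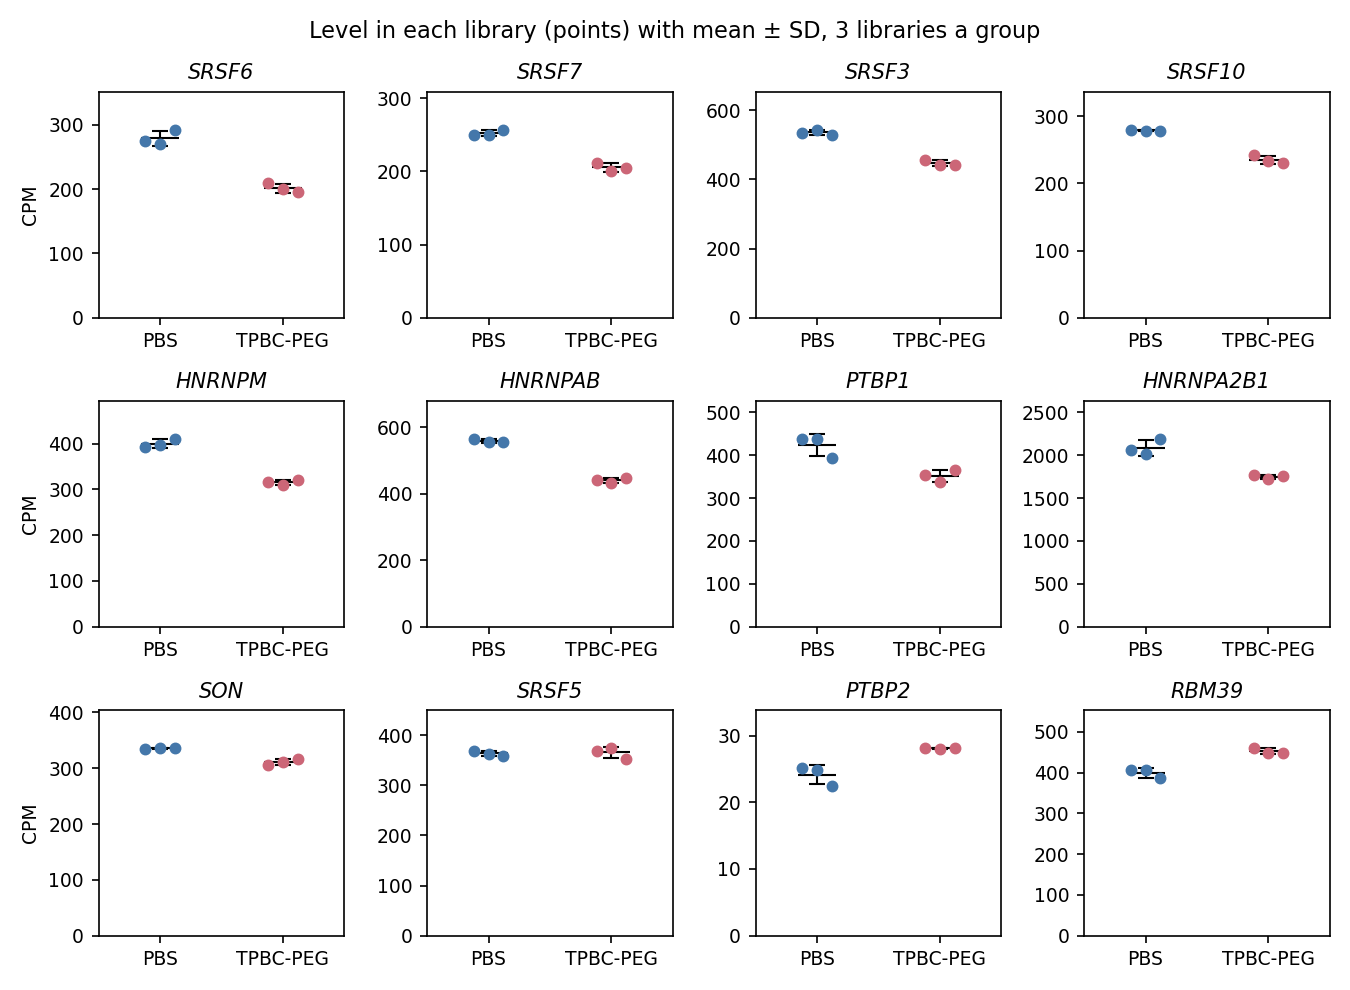
Level in CPM of 12 of the genes in each of the 3 PBS and 3 TPBC-PEG libraries (points), with the mean and SD as bars; each vertical axis starts at 0. In SRSF6 the treated libraries sit at 195.0 to 208.8 CPM and the PBS libraries at 269.8 to 292.5, while in RBM39 and PTBP2 the treated libraries sit above the PBS libraries.

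Of the 24 genes for hnRNPs, PTB proteins and SYNCRIP, 18 fell, 1 rose and 5 were not called, with a median log2 fold change of -0.15. In the A/B and D families all 7 genes fell. HNRNPAB had 565.3, 556.6 and 554.0 CPM in PBS cells and 441.2, 431.4 and 447.3 with TPBC-PEG. The groups lay far apart beside their spread, at -0.34 ± 0.036 (edgeR adjusted p = 4.01e-11). HNRNPA2B1, which encodes a protein that also sorts RNA into exosomes and dendrites, was the most abundant of the 40 genes, at 2058, 2009 and 2194 CPM in PBS cells and 1766, 1722 and 1758 with TPBC-PEG. Its change was -0.26 ± 0.037 (edgeR adjusted p = 2.30e-07). HNRNPA3 and HNRNPD, which encodes the AU-rich element binding protein AUF1, both fell by 12.8%. HNRNPD had 600.9, 565.9 and 612.1 CPM in PBS cells and 505.9, 512.9 and 532.8 after TPBC-PEG, with no overlap.

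The other members of these families fell by less. HNRNPA1, whose protein is a standard antagonist of SRSF1 at splice site choice, had 860.0, 971.1 and 958.2 CPM in PBS cells and 851.9, 901.2 and 838.6 with TPBC-PEG. The groups overlapped, since PBS replicate 1 lay below TPBC-PEG replicate 2, and the change was -0.11 ± 0.04 (edgeR adjusted p = 0.0394). The HNRNPA1 call was lost without PBS replicate 2 or 3 (edgeR adjusted p = 0.184 and 0.152), without TPBC-PEG replicate 1 or 3 (0.143 and 0.166), with library size alone (0.238) and by DESeq2 (adjusted p = 0.0565), and the sign turned with the expression trend removed (0.01). HNRNPA1 has 74 annotated copies in the table, at a summed 140.0 CPM in PBS cells and 146.0 with TPBC-PEG, or 15.9% of its own level, so reads may be shared. HNRNPA0 stood at 246.4 ± 11.5 and 229.2 ± 4.92 CPM, and its groups did not overlap. HNRNPDL had 441.8, 401.9 and 440.4 CPM in PBS cells and 406.8, 386.9 and 399.6 after TPBC-PEG, and its groups overlapped at PBS replicate 2. The HNRNPA0 call was lost without PBS replicate 1 or 3 and without TPBC-PEG replicate 1 or 2 (edgeR adjusted p = 0.164, 0.0526, 0.0648 and 0.167). The HNRNPDL call was lost without PBS replicate 1 or 3 and without TPBC-PEG replicate 2 or 3 (edgeR adjusted p = 0.102, 0.106, 0.165 and 0.0511). Both calls were also lost with library size alone (edgeR adjusted p = 0.234 and 0.207) and after the expression trend was removed (edgeR adjusted p = 0.6 and 0.775).

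The hnRNP F/H proteins bind runs of guanines near splice sites. HNRNPF had 301.4, 306.8 and 302.6 CPM in PBS cells and 264.9, 267.6 and 270.1 with TPBC-PEG. The groups were apart, and the gene fell by 11.9% (edgeR adjusted p = 7.20e-05). HNRNPH1 had 699.0, 689.9 and 718.6 CPM in PBS cells and 635.4, 621.6 and 624.0 after TPBC-PEG, also apart, and fell by 10.7% (edgeR adjusted p = 2.26e-04). HNRNPH3 fell by 8.27%, from 327.7 ± 15.4 to 300.5 ± 3.96 CPM, a call lost without PBS replicate 3 (edgeR adjusted p = 0.0778), with library size alone (0.0842) and after the expression trend was removed (0.435). The HNRNPH1 call was also lost with the expression trend removed (edgeR adjusted p = 0.184). HNRNPH2, on the X chromosome, had 99.9, 93.9 and 105.9 CPM in PBS cells and 98.3, 97.4 and 92 after TPBC-PEG, with overlap, and was not called (edgeR adjusted p = 0.398). Of its exon length 16.3% overlaps RPL36A-HNRNPH2 on the same strand, which is at a mean of 0 in both groups.

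Polypyrimidine tract binding proteins and hnRNP L bind pyrimidine-rich or CA-rich RNA and mostly repress exons. PTBP1 (chromosome 19, 797075 to 812327, plus strand) is the form of most dividing cells, and PTBP2 (chromosome 1, 96721665 to 96823738, plus strand) is the neuronal form. PTBP1 is known to lower PTBP2 by skipping one of its exons. PTBP1 had 437.4, 438.9 and 394.0 CPM in PBS cells and 353.6, 338.3 and 365.8 with TPBC-PEG, a change of -0.27 ± 0.04 (edgeR adjusted p = 7.76e-07). PTBP2 had 25.1, 24.8 and 22.5 CPM in PBS cells and 28.2, 28 and 28.1 with TPBC-PEG, a change of 0.22 ± 0.074 (edgeR adjusted p = 0.0203). The groups did not overlap in either gene, and the directions were opposite. PTBP2 stayed far below PTBP1: per kilobase of exon, their PBS levels were 1.87 and 61.5 CPM.

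The PTBP2 call rests on a small gap. It was lost without PBS replicate 3 (edgeR adjusted p = 0.128), without TPBC-PEG replicate 1 or 2 (0.0595 and 0.0514), by DESeq2 (adjusted p = 0.0617) and with the GC or exon length trend removed (0.145 and 0.0584). PTBP3 had 178.6, 170.3 and 178.1 CPM in PBS cells and 177.3, 172.4 and 166.9 after TPBC-PEG, with overlap, and was not called. HNRNPL had 183.8, 182.0 and 191.8 CPM in PBS cells and 155.8, 156.3 and 161.7 with TPBC-PEG. The groups were apart, and the gene fell by 15% (edgeR adjusted p = 4.56e-06). Its relative HNRNPLL, known for the CD45 splicing switch of T cells, had 72.3, 66.7 and 65.5 CPM in PBS cells and 63.2, 71.3 and 67.9 after TPBC-PEG, with overlap, and was not called.

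HNRNPM, which encodes a binder of GU-rich RNA known in the splicing of CD44, had 393.3, 397.0 and 411.2 CPM in PBS cells and 315.5, 309.1 and 321.4 with TPBC-PEG. The change was -0.34 ± 0.036 (edgeR adjusted p = 8.27e-11), and the groups lay far apart. HNRNPC, which measures transcript length and shields cryptic exons, stood at 979.0 ± 51.3 and 888.5 ± 5.65 CPM, and HNRNPK, a poly(C) binder, at 1084 ± 53 and 979.5 ± 8.33. HNRNPC fell by 9.23% and HNRNPK fell by 9.67%. SYNCRIP, which encodes hnRNP Q, had 541.7, 520.4 and 549.7 CPM in PBS cells and 495.0, 487.4 and 462.4 after TPBC-PEG, and it fell by 10.3%. Its relative HNRNPR had 388.4, 366.5 and 374.0 CPM in PBS cells and 365.6, 358.7 and 356.6 after TPBC-PEG. The HNRNPR groups did not overlap either, but the gene was not called (edgeR adjusted p = 0.191). With the expression trend removed the calls of HNRNPC, HNRNPK and SYNCRIP were lost (edgeR adjusted p = 0.634, 0.583 and 0.192), and so was that of SRSF2 (0.0918). HNRNPR passed as lower with the GC trend removed (edgeR adjusted p = 0.003).

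HNRNPU, which encodes the scaffold attachment factor A that ties RNA to chromatin, had 1096, 1042 and 1130 CPM in PBS cells and 909.8, 931.6 and 932.6 with TPBC-PEG. The groups were apart, and the gene fell by 15.1% (edgeR adjusted p = 8.31e-07). COX20 on the opposite strand overlaps 15.6% of its exon length and was not called, at -0.12 ± 0.06. HNRNPUL1 had 308.7, 309.9 and 315.6 CPM in PBS cells and 273.1, 253.1 and 275.6 after TPBC-PEG, with no overlap, and fell by 14.2% (edgeR adjusted p = 6.61e-06). HNRNPUL2 had 79, 68.2 and 82.1 CPM in PBS cells and 71.9, 67.4 and 78.3 with TPBC-PEG, and the groups overlapped. It passed as lower without PBS replicate 2 (edgeR adjusted p = 0.0318). Its count is less certain, since 44.1% of its exon length overlaps HNRNPUL2-BSCL2 on the same strand, which is at a mean of 0 in both groups.

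Summed over the 16 SR, TRA2, RBM39 and SON genes, the level was 4102, 4040 and 4069 CPM in PBS cells and 3773, 3700 and 3663 with TPBC-PEG, a change of -8.8%. Summed over the 24 hnRNP, PTBP and SYNCRIP genes, it was 12645, 12373 and 13091 CPM in PBS cells and 11184, 11099 and 11200 with TPBC-PEG, a change of -12.1%. In both sums every treated library lay below every PBS library (two-sided exact permutation p = 0.1 each, n = 3, the smallest that 3 against 3 can give). These sums come from the same counts as the genes and are led by the most abundant ones.

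The order of levels per kilobase of exon was led by HNRNPAB at 260.6 CPM per kilobase with PBS, HNRNPA2B1 at 225.2, HNRNPK at 212.1 and HNRNPA1 at 182.6. The length used merges all annotated exons of a gene, those of retained-intron transcripts included, so it can exceed the length of the mRNA. HNRNPU has 22512 bases by this measure and stood at 48.4, so the order depends on the annotation. Among the SR protein genes SRSF2 came first at 111.4, then SRSF3 at 75.3 and SRSF5 at 67.8. SRSF6 and SRSF7 were nearly level with PBS, at 60.8 and 62.5, and stood at 43.9 and 50.9 with TPBC-PEG. The lowest were SRSF4 at 8.37, PTBP2 at 1.87 and SRSF12 at 0.272.

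Paralogues were also compared as ratios within a library, which the scaling of whole libraries cannot move. Trends with GC content or level can move them, and no ratio was taken with those trends removed. Of 14 pairs, 9 had log2 ratios that did not overlap between the groups (two-sided exact permutation p = 0.1, n = 3, the smallest possible; 0.16 adjusted over the 14 pairs). For single genes the share without overlap was 22.1% above and 21.4% below, and no such share was computed for other gene pairs. PTBP2 to PTBP1 shifted the most: the log2 ratio was -4.12, -4.15 and -4.13 with PBS and -3.65, -3.60 and -3.70 with TPBC-PEG, a difference of 0.48. SRSF4 to SRSF6 went from -1.93, -1.81 and -1.98 to -1.66, -1.54 and -1.57, a difference of 0.32. PTBP3 to PTBP1 differed by 0.23 and HNRNPLL to HNRNPL by 0.22. In all 9 pairs the shift was toward the less abundant gene, and the part of the trend with level in this was not tested. PTBP2 and PTBP1 also differ in the GC content of their longest transcript, 34.7% and 61.7%.

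In 5 pairs the groups overlapped. SRSF3 to SRSF7 had a log2 ratio of 1.08 ± 0.0399 with PBS and 1.12 ± 0.021 with TPBC-PEG (exact permutation p = 0.4, n = 3). HNRNPH1 to HNRNPF stood at 1.21 ± 0.0394 and 1.23 ± 0.0292 (exact permutation p = 0.5, n = 3). TRA2A to TRA2B stood at -2.18 ± 0.0266 and -2.23 ± 0.0801 (exact permutation p = 0.4, n = 3). With 3 libraries a group, a ratio that overlaps does not show that paralogues changed alike.

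**Figure D4:**
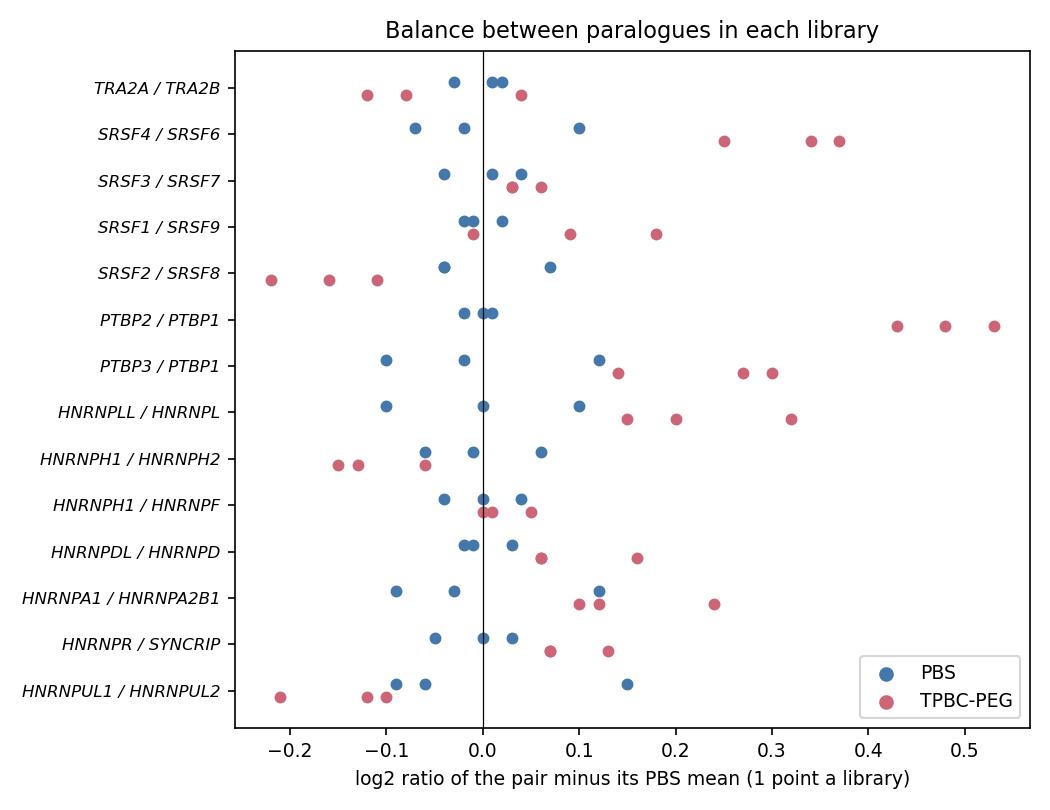
log2 ratio of CPM for 14 pairs of paralogues in each library, less the mean of the PBS libraries of that pair, with 1 point per library. The PTBP2 to PTBP1 ratio of the TPBC-PEG libraries lies 0.48 above that of the PBS libraries on average.

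Promoters were read for the 36 genes that the RefSeq promoter table holds (GRCh38.p14, 250 bases before to 50 after the start). Their median GC content was 65.7%, against 58.3% over 27305 promoters. On either strand, the GC box GGGCGG was found in 25 of 36 (69.4%), against 44.6% of all promoters, and the CCAAT box in 17 (47.2%), against 35.7%. The E-box CACGTG was found in 8 of 36 (22.2%), against 7.43% of all promoters. The E-box genes were HNRNPA3, HNRNPD, HNRNPDL, HNRNPH2, HNRNPH3, HNRNPM, SYNCRIP and HNRNPUL1. Genes called lower made up 7 of the 8 with an E-box, 18 of the 25 with a GC box and 12 of the 17 with a CCAAT box. Beside these stand 28 of all 40, a share that includes the genes not searched. No difference between these shares was tested. TTGCATCA, the core of the amino acid response element through which ATF4 acts, was found in none of the 36 and in 0.923% of all promoters. The letters TATAAA were found in 13.9% against 12%, and CCGGAAG, an ETS site, in 13.9% against 10.7%. These searches count letters in a window and say nothing of which factor binds.

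The promoters of the PTB pair, which went opposite ways, and of HNRNPM, the larger of the falls among genes with an E-box, are shown with every match to these motifs in capitals.
PTBP1, chr19:797202-797501, plus strand: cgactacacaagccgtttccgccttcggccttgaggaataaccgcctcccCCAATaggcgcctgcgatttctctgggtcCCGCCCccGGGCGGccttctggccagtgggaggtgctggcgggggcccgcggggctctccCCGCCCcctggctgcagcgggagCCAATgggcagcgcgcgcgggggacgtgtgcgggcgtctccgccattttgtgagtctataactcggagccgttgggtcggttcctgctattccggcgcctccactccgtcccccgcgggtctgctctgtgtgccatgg
PTBP2, chr1:96722388-96722687, plus strand: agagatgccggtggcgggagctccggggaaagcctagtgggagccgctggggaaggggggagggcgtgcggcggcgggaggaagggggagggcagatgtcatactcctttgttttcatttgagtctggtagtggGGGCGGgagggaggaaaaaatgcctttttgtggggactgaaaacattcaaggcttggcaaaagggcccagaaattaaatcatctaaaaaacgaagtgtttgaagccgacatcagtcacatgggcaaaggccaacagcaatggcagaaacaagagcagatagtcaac
HNRNPM, chr19:8444725-8445024, plus strand: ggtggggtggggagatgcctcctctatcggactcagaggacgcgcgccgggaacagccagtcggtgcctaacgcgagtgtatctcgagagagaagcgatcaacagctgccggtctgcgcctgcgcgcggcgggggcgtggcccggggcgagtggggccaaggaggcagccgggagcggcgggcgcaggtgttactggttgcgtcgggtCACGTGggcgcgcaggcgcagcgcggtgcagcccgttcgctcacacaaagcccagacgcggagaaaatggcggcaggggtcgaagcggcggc
PTBP1 has 3 GC boxes and 2 CCAAT boxes, while PTBP2 has 1 GC box, and their GC content is 69.3% and 54%. The E-box of HNRNPM begins 42 bases before the start.

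Other genes of the splicing machinery, from 8 lists, were read in the same fit. Of 11 genes for the Sm ring and for the U1 snRNP, which recognises the 5′ splice site, 9 fell and none rose (median -0.17). The largest falls were those of SNRNP70 at -0.44 ± 0.04 and the Sm gene SNRPD3 at -0.43 ± 0.065. Of 17 genes for the U2 snRNP and U2AF, which mark the branch point and 3′ splice site, 11 fell and none rose (median -0.16), with U2AF2 at -0.33 and PUF60 at -0.32. With library size alone or with the expression trend removed, 7 of these 17 were lower. Of 17 genes for the tri-snRNP and the PRP19 complex 9 fell and none rose, with EFTUD2 at -0.30 and USP39 at -0.28. These counts stand beside 16.9% called lower over all genes and 42.1% among genes of 100 CPM or more.

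Of 41 tested splicing regulators outside the SR and hnRNP families 16 fell and 4 rose, a share of lower calls near the 42.1% of genes at 100 CPM or more. Among those that fell were KHSRP at -0.33 and ELAVL1, whose protein stabilises mRNAs, at -0.31. MBNL2, a muscleblind splicing factor, rose from 20.4, 23.3 and 21.2 to 38.1, 39.7 and 36.2 CPM, a log2 fold change of 0.81 ± 0.073 (edgeR adjusted p = 5.50e-13). ESRP1, an epithelial splicing factor, rose from 0.104, 0.277 and 0.315 to 0.925, 1.16 and 1 CPM, few reads in any library. Of 30 SR-related genes 12 fell and 3 rose, again near that 42.1% for lower calls and under the 16.2% of all genes for higher ones, with SRRT at -0.36 and DDX46 at -0.27, and RSRP1 at 0.22. Without TPBC-PEG replicate 1 the number of SR-related genes that rose was 1.

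Of 10 tested splicing kinase genes 4 rose, none fell and 6 were not called, with a median log2 fold change of 0.07, beside 16.2% of all genes called higher. CLK1, which phosphorylates SR proteins in the nucleus, rose from 67.7, 66.5 and 65.8 to 131.2, 134.5 and 124.9 CPM, a log2 fold change of 0.97 ± 0.047 (edgeR adjusted p = 2.33e-22). CLK4 rose by 0.44 ± 0.093, and DYRK1A and DYRK2, named here after their values were seen, by 0.26 and 0.21. Without PBS replicate 2 the number that rose was 2, CLK1 and CLK4. SRPK1, also named after its values were seen, which phosphorylates SR proteins in the cytoplasm, stood at 247.2 ± 4.49 and 232.3 ± 3.76 CPM and was not called (edgeR adjusted p = 0.0594). One of the 10 was lower without PBS replicate 1 and with DESeq2's size factors, a filter of 1 CPM, or the GC or exon length trend removed.

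Of 7 genes for nuclear import and dephosphorylation 3 fell, a share near the 42.1% of abundant genes, and 1 rose. Among the falls were the phosphatase subunit genes PPP1CC and PPP1R10, both at -0.21. The import gene TNPO1 rose, at 0.11. The other import gene, TNPO3, named after its values were seen, stood at 128.1 ± 3.41 and 127.7 ± 2.12 CPM. It was not called (edgeR adjusted p = 0.948), so a rise of SR protein import is not shown. The TNPO1 call was lost without PBS replicate 2 (edgeR adjusted p = 0.121), without TPBC-PEG replicate 1 (0.0797) or 2 (0.118) and with the GC trend removed (0.345). Of 17 nonsense-mediated decay factors, which clear transcripts with poison exons, 9 fell and 2 rose, beside 16.9% lower and 16.2% higher over all genes and 42.1% lower among those of 100 CPM or more. UPF1, the central helicase of decay, was at -0.31 ± 0.046, SMG9 at -0.27, and the rises were SMG1 at 0.12 and NBAS at 0.16. Both rises were lost without TPBC-PEG replicate 2 (edgeR adjusted p = 0.0715 and 0.126) and with the GC trend removed (edgeR adjusted p = 0.132 and 0.0889). That of NBAS was also lost without PBS replicate 2 or 3 or TPBC-PEG replicate 1 (edgeR adjusted p = 0.148, 0.0522 and 0.0581). Without TPBC-PEG replicate 1 the number of decay factors called lower was 5, as it was with library size alone.

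**Figure D5:**
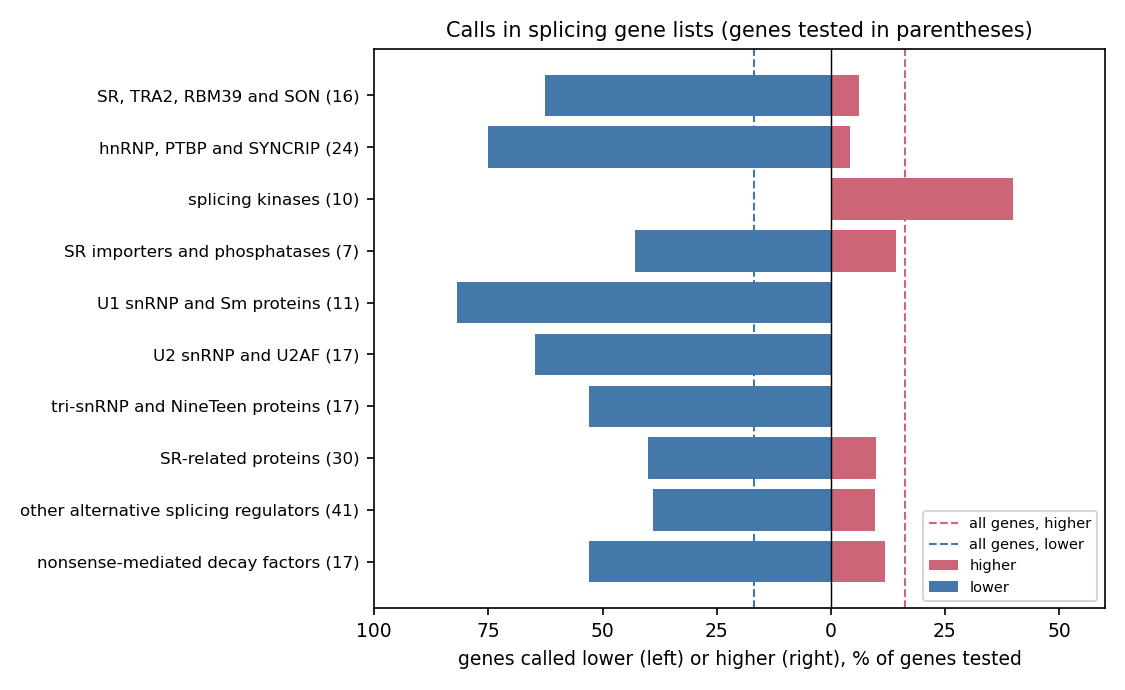
Share of genes called lower (left) and higher (right) among the genes tested in the 2 families and in 8 lists of other splicing genes; dashed lines give the shares over all genes tested, 16.9% lower and 16.2% higher. The splicing kinases show rises only, with 4 of 10, and the snRNP lists show falls only.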

How the data were processed

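Messenger RNA was sequenced in 6 libraries of 143B cells, grouped by the sample titles. The authors deposited raw read counts per Ensembl gene. Per the submitters' processing notes, HISAT2 and the GRCh38 build were used. How reads were counted, with which annotation and strand setting, is not given in the sources used here, so reads of overlapping genes or near-identical copies may be shared or dropped.

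From these counts, genes were kept by filterByExpr (minimum count 10, minimum total 15), scaled by TMM and tested with edgeR 4.0.16 (quasi-likelihood, robust; limma 3.58.1, R 4.3.3), fitted on group alone, with Benjamini-Hochberg adjustment over 15846 genes. The SE came from the F statistic. DESeq2 1.42.0 was an alternative. Trends with GC content, exon length and expression level were removed by lowess (span 0.3). Library totals ran from 15726323 to 20486584 counts, and counting error alone understates the error, since PCR copies cannot be told from molecules here. The script was tested on simulated data. The changes planted there were larger than most of the falls reported here, so that test does not cover them. Between replicates of a group the chi-square of counts was 2.26 to 4.32 per degree of freedom, above sampling noise.

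Coordinates, exon lengths and transcript types came from GENCODE 29 (GRCh38), promoters from RefSeq. The members and gene lists were chosen with earlier results of these data known. All 40 members are reported, with values per library for the 8 called genes of largest change in each direction (2 in the higher) and for paralogue pairs. Those of SRSF5, SRSF12, SON and HNRNPU were added after their values were seen. From each list the text names at most 2 called genes each way, those of largest change with a level of 1 CPM or above. The 3 kinase genes DYRK1A, DYRK2 and SRPK1 and the import gene TNPO3 were added after their values were seen. Protein features were planned but not computed. One gene that this rule names is not reported here.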

Additional observations from a re-analysis of the deposited data

How the results depend on the processing

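Of the 30 genes called among the 40, 16 were called in all 20 other settings apart from the test against a 1.5-fold change, under which 0 were lower and 0 higher. Leaving out each library in turn, 23 to 28 members were lower, 1 to 2 higher, and the median log2 fold change ran from -0.16 to -0.13. With the expression trend removed 17 were lower and the median was -0.06. One member was higher by DESeq2, with the GC trend removed, with the replicate block and the GC trend removed together, and with the exon length trend removed. The median was -0.11 with library size alone, -0.20 with the GC trend removed and -0.19 with the block and GC trend. With library size alone the summed log2 ratio was -0.09 for the RS-domain genes and -0.14 for the hnRNP genes, against -0.13 and -0.19. The cause of these shifts was not tested. Small differences changed sign. SRSF5 was at -0.04 with the GC trend removed, with or without the block, and -0.01 without PBS replicate 3 or TPBC-PEG replicate 2, but passed as higher, at 0.09, with the expression trend removed (edgeR adjusted p = 0.0436). SRSF11 passed as lower, at -0.11, with the GC trend removed (edgeR adjusted p = 0.015). SRSF8 was at 0.04 with library size alone, 0.00165 with protein-coding genes alone, and ran from -0.03 without PBS replicate 2, through 0.00168 without PBS replicate 3, to 0.01 without TPBC-PEG replicate 1. HNRNPLL was at 0.03 with library size alone, 0.01 with the expression trend removed, 0.02 without PBS replicate 1 and 0.03 without TPBC-PEG replicate 1. PTBP3 was at 0.02 with library size alone. With the expression trend removed PTBP3 and SRSF11 were at 0.03, HNRNPR at 0.02 and HNRNPA1, called in the main test, at 0.01. Same-numbered libraries of the 2 groups did not deviate together (r = 0.00336, 0.0646 and -0.0154, across genes), and 2 of 6 libraries correlated best with their own number. With the replicate block 28 members were lower and 2 higher, as without it, and the median was -0.15. Adding 1 CPM before the ratio, or leaving out a library, moved no paralogue difference by more than the replicate SD.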
